A study of Mus musculus with 16 samples.

Results

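The genes described here are 10 markers of colonic crypt stem cells or targets of Wnt signalling: *Lgr5*, *Ascl2*, *Smoc2*, *Lrig1*, *Sox9*, *Ephb2*, *Cdca7*, *Axin2*, *Rnf43* and *Znrf3*. They were chosen by name, with earlier results of these data known, and all 10 were found among the 22396 gene symbols listed for the series. RNA was sequenced from EpCAM+ (epithelial) cells sorted from the distal colon of 16 mice, with a library for each mouse, and the mice were 8 weeks old. Controls were Tnfr2-f/f mice, which carry loxP sites around exon 2 of *Tnfrsf1b*, the gene for the tumor necrosis factor receptor TNFR2, and the mice labelled knockout were Vil1::Cre;Tnfr2-f/f. Both genotypes therefore carried the floxed alleles, and Cre was driven by the villin promoter, which is active in intestinal epithelium. Water was given to 4 control mice and 5 knockout-labelled mice, and dextran sulfate sodium (DSS), which injures the colonic epithelium, to 3 control mice and 4 knockout-labelled mice. Per the labels, 3% DSS was given for 6 days and all mice were dissected on day 12, whereas the study's text gives a higher DSS concentration and calls the water-treated mice uninjured mice of the first day. After DSS, the injured regions of the colon were picked under a stereomicroscope before sorting. Water-treated mice came from cage a (2 control and 2 knockout-labelled males) and cage b (2 control and 3 knockout-labelled females). DSS-treated mice were all females, from cage c (1 of each genotype) and cage d (2 control and 3 knockout-labelled). No cage held both treatments, so cage and treatment cannot be told apart.

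In the intestinal crypt, Wnt ligands bind Frizzled and Lrp receptors, which stops the destruction complex from degrading β-catenin and lets it activate target genes together with TCF/LEF factors. R-spondins strengthen this signal: bound to Lgr receptors, they hold back the membrane ubiquitin ligases Rnf43 and Znrf3, which otherwise remove Frizzled from the cell surface. Wnt signalling maintains the stem cells at the crypt base, and it also induces its own inhibitors, so that markers of stem cells and reporters of feedback are different classes of target.

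Levels are given as TPM, a measure of transcript abundance that is corrected for library size and transcript length, so that levels can be set side by side between genes. The targeted gene, *Tnfrsf1b*, was not lower in all mice labelled knockout. It lay at 13.5, 15.4, 11.1 and 15.5 TPM in the water-treated controls and at 11.4, 10.1, 9.23, 14.8 and 13.3 TPM in the knockout-labelled mice given water. After DSS it lay at 22.2, 13.9 and 13.3 TPM in the controls and at 27.0, 13.5, 15.2 and 17.7 TPM in the knockout-labelled mice. The difference was -0.23 ± 0.16 (log2 fold change ± SE, limma adjusted p = 0.865) with water and 0.14 ± 0.27 after DSS (limma adjusted p = 1.00). TPM summed over a transcript do not show whether the floxed exon was covered, so the label is kept as a label. The study itself reported less TNFR2 in EpCAM+ cells of this genotype by flow cytometry, and its loss by qPCR of sorted EpCAM+ cells.

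The 6 epithelial reference genes (*Epcam*, *Cdh1*, *Krt8*, *Cldn7*, *Cdx2* and *Vil1*) summed to between 3267 and 5136 TPM in all 16 mice. *Krt8* alone had group means of 1882 to 2326 TPM. As deposited, 4 of the 6 genes were higher after DSS in controls, beside 69.6% of all genes. In knockout-labelled mice 5 of the 6 were, beside 66.3%. Their median differences were 0.36 and 0.33 on the log2 scale. The sorted cells also carried RNA of other cells, most of all with water. The sum of 12 leukocyte markers ranged from 1446 to 9315 TPM in the water-treated controls and from 4216 to 14611 TPM in the knockout-labelled mice given water, against 25.5 to 121 TPM and 39.8 to 491 TPM after DSS. With water the marker *Jchain* alone had means of 4108 TPM in controls and 7780 TPM in knockout-labelled mice. Of the 8 leukocyte markers tested for genotype with water, 4 had a higher mean log2 level in knockout-labelled mice and 4 a lower one. For 12 of the 13 stromal, endothelial and glial markers (*Myh11* was not listed), the sum ranged from 444 to 758 TPM and from 214 to 625 TPM with water, and from 111 to 407 TPM and from 115 to 517 TPM after DSS. In the DSS-treated controls, 3 leukocyte markers were at 0 in every mouse. In sorted bulk RNA, fewer cells of a type and less RNA per cell cannot be told apart.

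**Figure D1:**
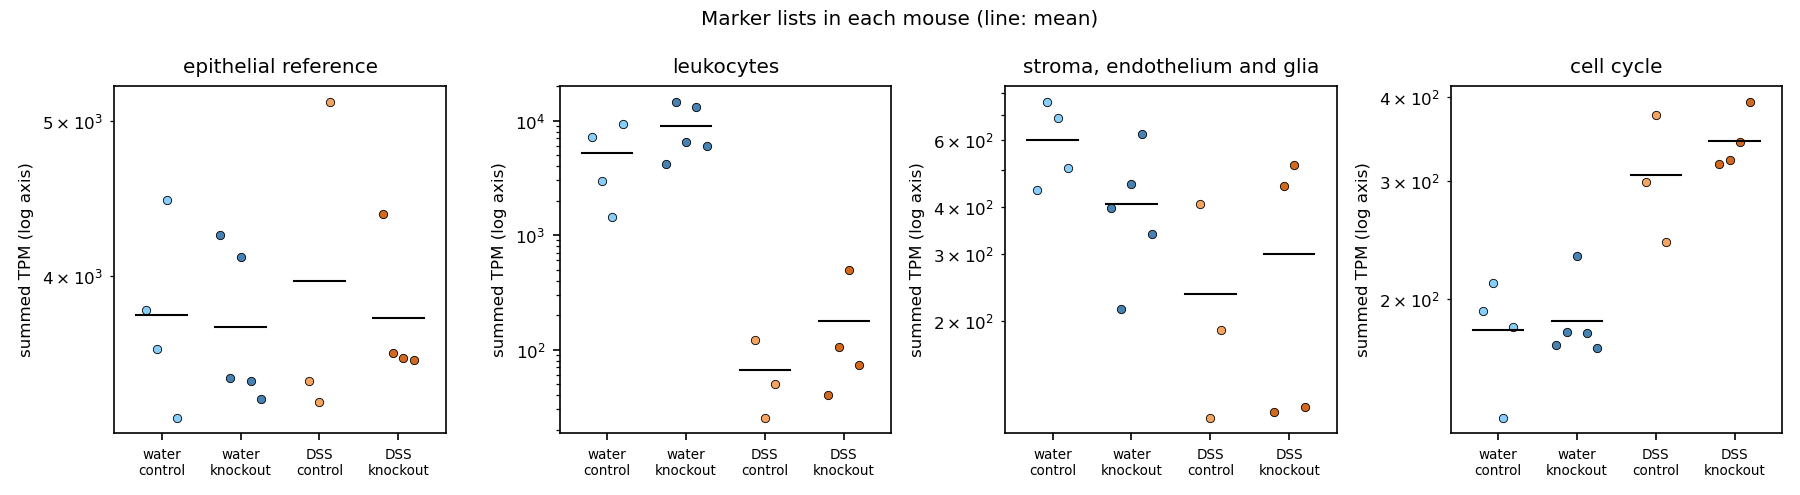
Summed TPM of 4 marker lists, each on a log axis of its own, in each of the 16 mice, by group; points are mice and lines are means. The leukocyte sum lies at 1446 to 14611 TPM in the water-treated mice and at 25.5 to 491 TPM in the DSS-treated mice, and the cell cycle sum lies at 133 to 232 TPM with water and at 244 to 394 TPM after DSS.

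Over all 16 mice, the 10 genes fell into an abundant and a scarce set. *Lrig1* (mean 32.8 TPM), *Smoc2* (28.4 TPM), *Cdca7* (25.2 TPM) and *Sox9* (18.4 TPM) were each far above *Axin2* (6.85 TPM), *Rnf43* (5.29 TPM), *Ascl2* (4.86 TPM), *Lgr5* (4.21 TPM), *Ephb2* (2.16 TPM) and *Znrf3* (1.67 TPM). *Sox9*, the lowest of the abundant set, exceeded *Axin2* in 16 of 16 mice, although *Lrig1* lay among the scarce genes in 1 knockout-labelled mouse given water (2.61 TPM). Neighbours within a set were less separated, with *Lrig1* above *Smoc2* in 11 of 16 mice, *Smoc2* above *Cdca7* in 9, and *Axin2* above *Rnf43* in 12. The order of several neighbours differed between treatments. *Ascl2* was above *Lgr5* in 9 of 9 water-treated mice and in 1 of 7 DSS-treated mice. *Rnf43* was above *Ascl2* in 3 of 9 and 7 of 7, *Ephb2* above *Znrf3* in 4 of 9 and 7 of 7, *Smoc2* above *Cdca7* in 3 of 9 and 6 of 7, and *Axin2* above *Rnf43* in 8 of 9 and 4 of 7.

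*Lgr5* (chr10:115450311-115587780 in mm10, minus strand, 18 exons in the listed transcript) encodes the R-spondin receptor that marks crypt base stem cells. With water it lay at 2.00, 3.73, 2.26 and 2.47 TPM in controls and at 1.23, 0.801, 2.30, 1.80 and 2.11 TPM in knockout-labelled mice. After DSS it lay at 4.30, 7.07 and 4.16 TPM in controls and at 6.61, 10.3, 7.05 and 9.05 TPM in knockout-labelled mice. In these values, which were scaled separately for each treatment, every DSS-treated mouse was above every water-treated mouse, as for 18.9% of all genes. The highest group was the knockout-labelled one after DSS, which overlapped its controls through 1 control mouse at 7.07 TPM. With water, the 2 lowest mice were the knockout-labelled males of cage a, at 1.23 and 0.801 TPM, against 2.00 and 2.26 TPM in its control males. In cage b the knockout-labelled females, at 2.30, 1.80 and 2.11 TPM, were below both control females, at 3.73 and 2.47 TPM. Of these 3 females, 2 lay within the range of all controls only through the control males of cage a.

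*Ascl2* (chr7:142966829-142969264, minus strand, 3 exons) encodes the transcription factor that sustains the *Lgr5* stem cell programme. It lay at 4.68, 8.32, 4.44 and 5.79 TPM in the water-treated controls, and at 9.61, 7.10, 3.75, 2.62 and 4.05 TPM in the knockout-labelled mice given water. The DSS-treated controls lay at 4.76, 2.73 and 3.76 TPM, and the DSS-treated knockout-labelled mice at 2.55, 4.80, 3.96 and 4.80 TPM. The groups overlapped, and the highest DSS-treated mouse, at 4.80 TPM, was below 4 of the 9 water-treated mice.

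*Smoc2* (chr17:14279506-14404790, plus strand, 13 exons) encodes a secreted matrix protein of the crypt base signature. Its levels were 15.4, 24.3, 10.8 and 21.1 TPM in controls and 17.4, 13.8, 17.2, 13.2 and 15.6 TPM in knockout-labelled mice with water. After DSS they were 23.4, 52.4 and 52.4 TPM in controls and 44.5, 42.7, 33.7 and 56.4 TPM in knockout-labelled mice. All DSS-treated mice except 1 control at 23.4 TPM were above all water-treated mice. *Lrig1* (chr6:94604529-94700158, minus strand), a transmembrane inhibitor of ErbB receptors found on stem and progenitor cells, lay at 15.0, 33.1, 14.7 and 26.5 TPM in controls and at 25.2, 2.61, 16.8, 25.5 and 31.3 TPM in knockout-labelled mice with water. After DSS it lay at 41.9, 52.5 and 36.7 TPM in controls and within 49.0 to 53.3 TPM in the 4 knockout-labelled mice. Again every DSS-treated mouse was above every water-treated mouse as deposited, as for 18.9% of all genes. The knockout-labelled mouse at 2.61 TPM was also the lowest of the 16 for *Lgr5* and the highest for the leukocyte sum (14611 TPM). Whether the leukocyte RNA had a part in these values was not tested.

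*Sox9* (chr11:112782224-112787760, plus strand), a transcription factor of stem and progenitor cells, ranged from 13.9 to 18.1 TPM in the water-treated controls and from 12.6 to 17.8 TPM in the knockout-labelled mice given water. After DSS it ranged from 23.0 to 25.7 TPM in controls and from 18.6 to 24.1 TPM in knockout-labelled mice. *Ephb2* (chr4:136647539-136835988, minus strand), a receptor that positions cells along the crypt axis, ranged from 1.19 to 1.64 TPM and from 0.672 to 1.76 TPM with water, and from 2.57 to 3.77 TPM and from 2.92 to 3.82 TPM after DSS. *Cdca7* (chr2:72476159-72486893, plus strand), a Myc-responsive gene of dividing crypt cells, ranged from 13.5 to 18.6 TPM and from 12.5 to 25.0 TPM with water, and from 26.9 to 37.6 TPM and from 31.8 to 41.8 TPM after DSS. For all 3 genes, each DSS-treated mouse was above each water-treated mouse as deposited, which held for 18.9% of all genes.

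The remaining genes are feedback inhibitors of the pathway. *Axin2* (chr11:108920349-108950783, plus strand), a scaffold of the destruction complex that is widely read as a reporter of Wnt activity, lay at 5.28, 6.70, 8.05 and 7.15 TPM in the water-treated controls and at 8.85, 5.33, 5.14, 4.72 and 8.40 TPM in the knockout-labelled mice given water. After DSS it lay at 4.29, 7.20 and 10.9 TPM in controls and at 6.89, 7.04, 4.88 and 8.73 TPM in knockout-labelled mice. The 4 groups overlapped throughout. *Rnf43* (chr11:87662722-87735539, plus strand) ranged from 1.56 to 7.42 TPM and from 2.64 to 6.79 TPM with water, and from 5.21 to 11.0 TPM and from 4.42 to 7.72 TPM after DSS. *Znrf3* (chr11:5276324-5444847, minus strand) ranged from 0.842 to 1.50 TPM and from 0.980 to 2.52 TPM with water, and from 1.59 to 2.42 TPM and from 1.35 to 2.50 TPM after DSS. Both ligase genes overlapped between treatments in the knockout-labelled mice.

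**Figure D2:**
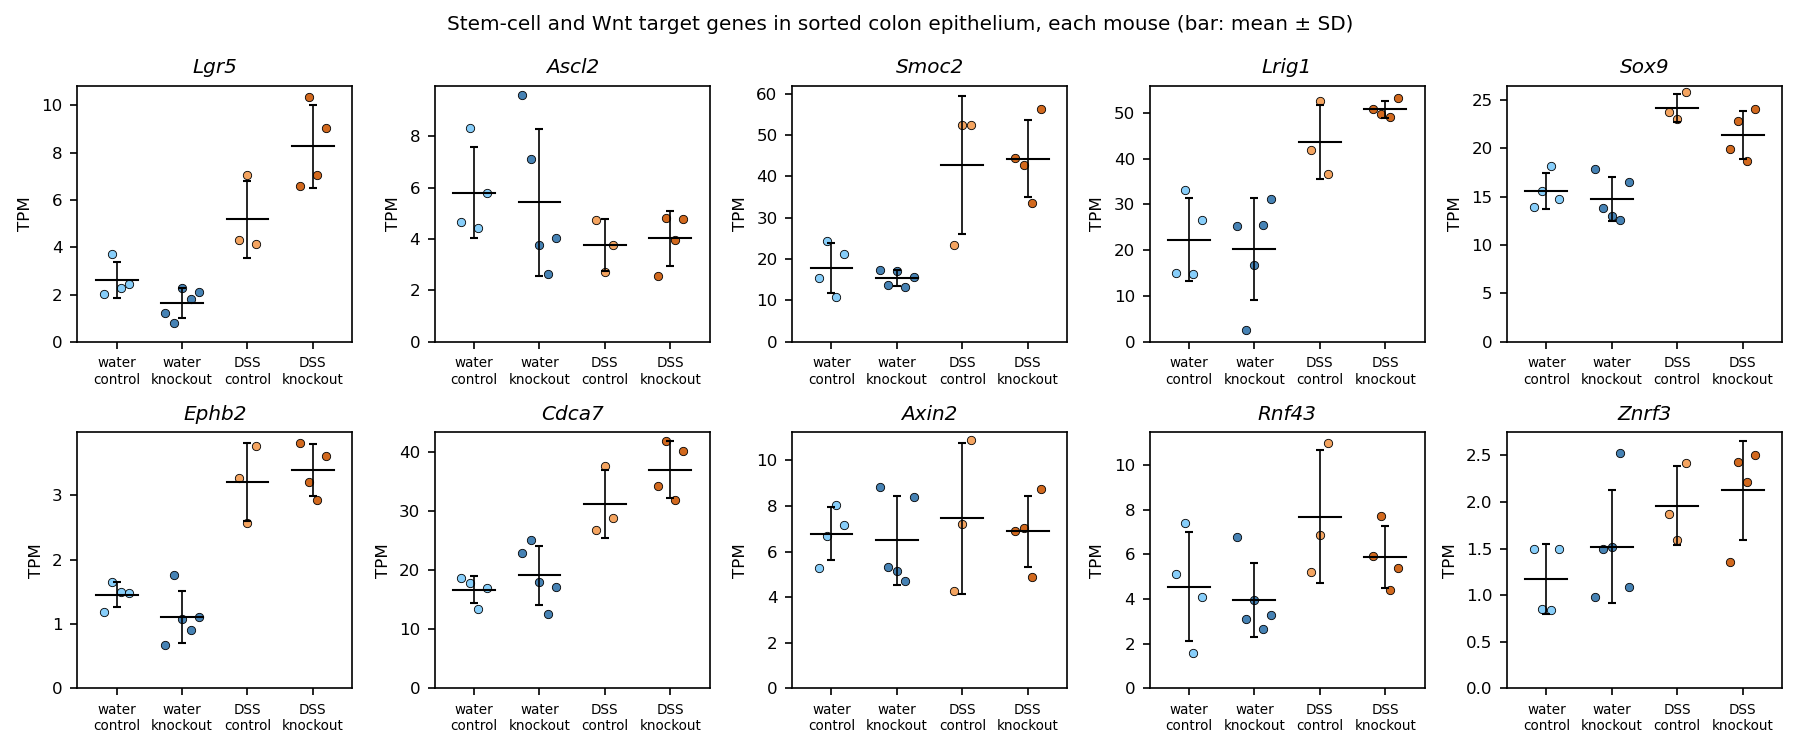
TPM of the 10 genes in each mouse, by group, on linear axes that start at 0; points are mice and bars are the mean ± SD of 4, 5, 3 and 4 mice. *Lgr5*, *Lrig1*, *Sox9*, *Ephb2* and *Cdca7* show no overlap between the 9 water-treated and the 7 DSS-treated mice, while *Axin2* and *Ascl2* do; of all genes, 18.9% lie above without overlap in this way.

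The question put to these mice was whether the epithelial loss of TNFR2 changes the expression state of the epithelium, in health and in repair. After DSS, no gene of the 10 passed limma's test at an adjusted p under 0.05, a threshold that 0.00918% of the 10899 genes tested passed (1 gene, *Tra2a*). At an unadjusted p under 0.05 the count was 1 of 10 members, *Lgr5*, beside 2.65% of all genes. Its mean was 5.18 ± 1.64 TPM (SD, n = 3) in controls and 8.27 ± 1.75 TPM (SD, n = 4) in knockout-labelled mice. The log2 fold change was 0.60 ± 0.23 (SE), with a limma p of 0.0320 (adjusted p = 1.00) and an exact two-sided permutation p of 0.143, in a design whose smallest possible p is 0.0286. In 4 of 4 knockout-labelled mice *Lgr5* was above the control mean. The unadjusted limma p was not under 0.05 with scaling to the epithelial reference genes (log2 fold change 0.62 ± 0.28, SE) and under the replicate block (0.55 ± 0.22). Nor was it without control mouse 1 (0.50 ± 0.26), control mouse 3 (0.48 ± 0.24), knockout-labelled mouse 2 (0.49 ± 0.24) or knockout-labelled mouse 4 (0.55 ± 0.26). In none of the 10 genes were the genotypes without overlap, against 3.68% of all genes tested.

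Of the other 9 genes, 6 had a higher mean log2 level in the knockout-labelled mice after DSS and 3 a lower one. The differences were 0.25 ± 0.16 for *Cdca7*, 0.23 ± 0.14 for *Lrig1*, 0.12 ± 0.31 for *Smoc2*, 0.08 ± 0.25 for *Ascl2*, 0.07 ± 0.19 for *Ephb2* and 0.07 ± 0.24 for *Znrf3* (log2 fold change ± SE). Those of the remaining genes were -0.31 ± 0.26 for *Rnf43*, -0.18 ± 0.13 for *Sox9* and -0.05 ± 0.30 for *Axin2*. For *Lrig1* and *Cdca7* all 4 knockout-labelled mice were above the control mean, and for *Sox9* none was. The median over the 10 genes was 0.07 on the log2 scale, beside 0.02 over all genes tested. The 8 cell cycle genes had a median difference of 0.16 and the 8 stromal genes that were tested one of 0.18, none of them passing the test. Within cages, *Lgr5* was higher in the knockout-labelled mice by 0.56 in cage c (1 mouse of each genotype) and by 0.57 in cage d (2 against 3). The number of members higher in knockout-labelled mice was 4 of 10 in cage c and 8 of 10 in cage d. No share of all genes was computed within these cages, so the counts do not set the members apart.

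With water, again no member passed the adjusted test, which 0.00905% of 11046 genes passed (1 gene, *Dus2*). At an unadjusted limma p under 0.05 the count was 0 members, beside 5.28% of all genes, and no member was without overlap between genotypes, beside 1.55%. *Lgr5* had a mean of 2.62 ± 0.77 TPM (SD, n = 4) in controls and of 1.65 ± 0.62 TPM (SD, n = 5) in knockout-labelled mice. Its log2 fold change was -0.46 ± 0.23 (SE; limma p = 0.0796, adjusted p = 0.865), 5 of 5 knockout-labelled mice were below the control mean, and the exact permutation p was 0.0794, where 0.00794 is the smallest this design can give. With cage as a covariate its log2 fold change was -0.51, with an unadjusted limma p of 0.0193 (adjusted p = 0.787), so that the unadjusted count was 1 member in that fit. Only *Znrf3* (0.20 ± 0.23) and *Cdca7* (0.16 ± 0.19) had a higher mean in knockout-labelled mice. The other 7 genes lay between -0.08 (*Sox9* and *Axin2*) and -0.37 (*Lrig1*, ± 0.61). The *Lrig1* difference rested on the knockout-labelled mouse at 2.61 TPM, since without it the value was 0.19.

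The members' median difference with water was -0.12, beside 0.00 over all genes. In the same mice, 9 of the 10 stromal markers tested had a lower mean in the knockout-labelled group, with a median difference of -0.50. Their part in the values of the members was not tested. Within cages, 6 of 10 members were higher in knockout-labelled mice among the males of cage a, and 1 of 10 among the females of cage b. The share of all genes within each cage was not computed and the mice were few, so these counts show no difference between cages or sexes. *Ascl2* was 0.74 higher in cage a and 0.85 lower (log2 difference -0.85) in cage b. *Lgr5* was lower in both, by -0.64 and -0.40 on the log2 scale.

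**Figure D3:**
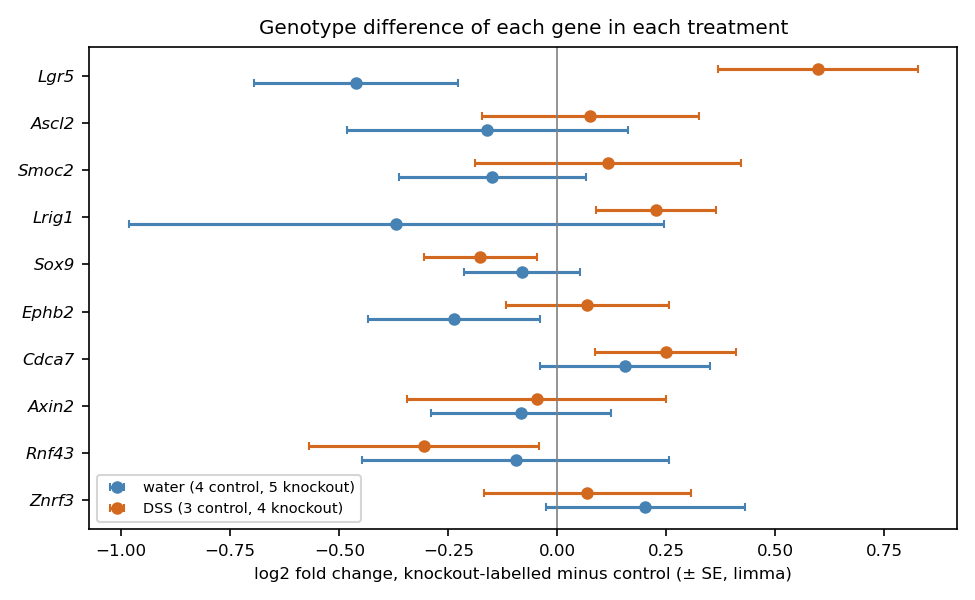
Log2 fold change of each gene, knockout-labelled minus control, with its SE from limma, in water-treated mice (blue) and DSS-treated mice (orange). *Lgr5* is at -0.46 with water and at 0.60 after DSS, and its error bars in the 2 treatments do not meet, whereas those of each other gene overlap.

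The genotype differences of *Lgr5* had opposite signs with water and after DSS, and the difference between them was tested as an interaction, in which a factor common to a table drops out apart from the pseudocount. At an adjusted p under 0.05, 0 of 10 members passed limma's test, and 0.00984% of 10159 genes did. At an unadjusted p under 0.05 the count was 1 of 10, again *Lgr5*, beside 4.29% of all genes. Its interaction was 1.06 ± 0.33 (log2, SE), with a limma p of 0.00634 (adjusted p = 0.929) and an exact permutation p of 0.00771, from 4410 regroupings of the genotype labels within each treatment. By limma's p it ranked 32 among the genes tested. The next in size were *Lrig1* (0.60 ± 0.75), *Ephb2* (0.31 ± 0.25), *Smoc2* (0.27 ± 0.38) and *Ascl2* (0.24 ± 0.44), each with an exact permutation p of 0.126 or more. In the same interaction, all 8 stromal markers tested were positive, with a median of 0.86, and their part in the value of *Lgr5* was not tested. Cage and sex did not enter the limma or the permutation test of the interaction. Males were among the water-treated mice only, and labels were regrouped across the cages of a treatment. The part of cage and sex in the value of *Lgr5* was not tested.

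Across treatments only levels can be compared, because the tables for water and DSS were normalized separately. As deposited, the median gene was 0.32 higher after DSS in controls and 0.31 higher in knockout-labelled mice (difference of mean log2(TPM + 1)). Members were 0.74 and 0.73 higher on the median. Without overlap above the water-treated mice were 6 of 10 members in controls, beside 30.9% of all genes, and 6 of 10 in knockout-labelled mice, beside 31.5%. In controls these were *Lgr5*, *Sox9*, *Lrig1*, *Znrf3*, *Ephb2* and *Cdca7*, and in knockout-labelled mice *Smoc2* took the place of *Znrf3*. No member was without overlap below, beside 8.25% and 10.1% of all genes.

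Rescaling all 16 mice together by median-of-ratios factors brought the median gene to 0.01 and -0.00 and the members' medians to 0.45 and 0.40. Then 3 members (*Sox9*, *Ephb2* and *Cdca7*) were without overlap above in controls, beside 10.6% of all genes, and *Ascl2* was without overlap below, beside 14.2%. In knockout-labelled mice 4 members (*Lgr5*, *Smoc2*, *Lrig1* and *Ephb2*) were without overlap above, beside 17.4%, and none below, beside 18.1%. Relative to the epithelial reference genes, the counts above were 3 in controls, beside 6.5%, and 5 in knockout-labelled mice, beside 17.3%, with 0 below, beside 14.2% and 16.1%. *Ephb2* was the gene without overlap in both genotypes under all 3 scalings, with mean levels of 1.45 ± 0.19 TPM (SD, n = 4) and 3.20 ± 0.60 TPM (SD, n = 3) in controls and of 1.10 ± 0.41 TPM (SD, n = 5) and 3.39 ± 0.40 TPM (SD, n = 4) in knockout-labelled mice, with water and after DSS.

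The deposited mean level of *Lgr5* after DSS was 1.98 times that with water in controls and 5.01 times in knockout-labelled mice. Under the other scalings the ratio was 1.56 and 1.61 in controls, where the ranges then overlapped, and 3.90 and 4.07 in knockout-labelled mice, where they did not. Among the water-treated mice *Lgr5* lay at 0.801 to 2.26 TPM in the 4 males and at 1.80 to 3.73 TPM in the 5 females, both below the lowest DSS-treated female at 4.16 TPM. *Smoc2* was 2.39 and 2.87 times its level with water, and *Lrig1* 1.96 and 2.50 times. By contrast, *Axin2* was 1.10 and 1.06 times its level with water as deposited, and 0.83 to 0.88 times under the other scalings, so that its direction turned with the scaling. *Ascl2* was lower after DSS under every scaling, at 0.65 and 0.74 times its level with water as deposited and at 0.50 to 0.63 times otherwise.

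**Figure D4:**
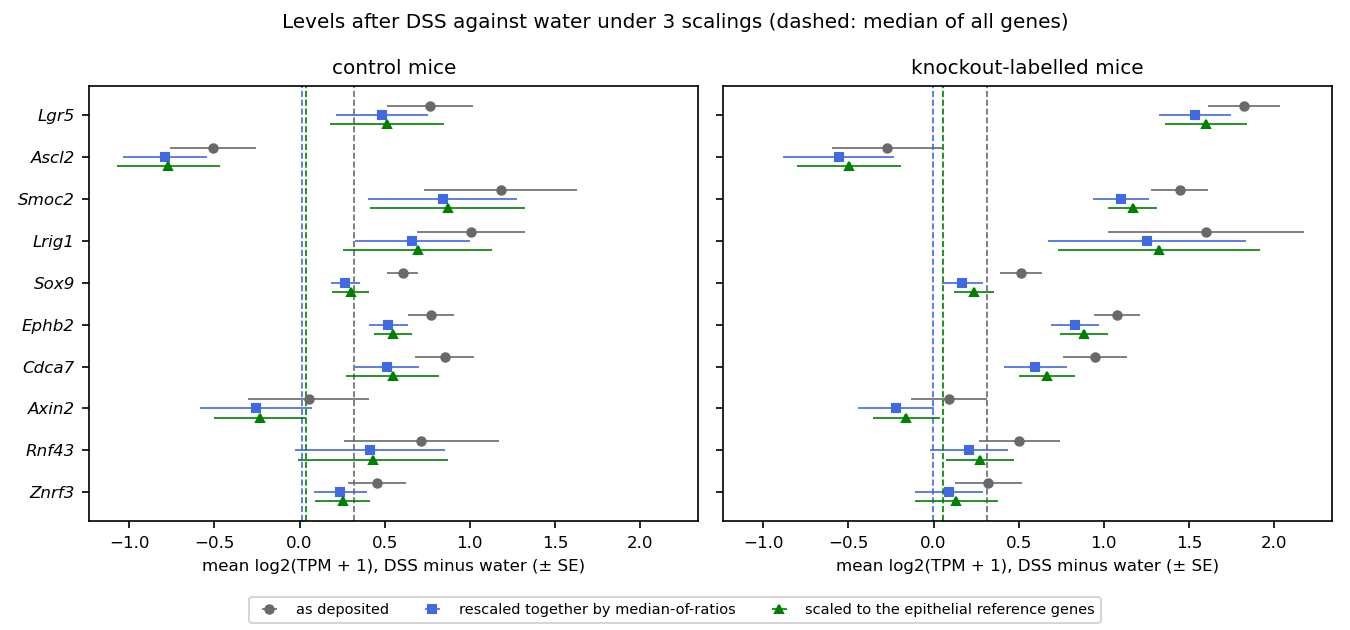
Difference of mean log2(TPM + 1), DSS minus water, for each gene in control mice (left) and knockout-labelled mice (right) under 3 scalings, with its SE; dashed lines are the median of all genes under the scaling of that color. *Ascl2* lies below 0 in both genotypes under all 3 scalings, *Axin2* lies on both sides of 0, and the other 8 genes lie above 0.

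A ratio of 2 genes within a mouse is free of the scaling of the table. After the levels had been seen, the ratios of all 45 pairs of members were compared, and 5 did not overlap between the 9 water-treated and the 7 DSS-treated mice (11.1%). This share was near that of all pairs of genes, 12.1% among 9371 genes above 0 in every mouse and with a mean of at least 1 TPM, so the count itself does not set the members apart. The ratio of *Lgr5* to *Ascl2* was 0.428, 0.448, 0.509 and 0.426 in the water-treated controls and 0.128, 0.113, 0.612, 0.688 and 0.522 in the knockout-labelled mice given water. After DSS it was 0.904, 2.59 and 1.11 in controls and 2.60, 2.16, 1.78 and 1.89 in knockout-labelled mice. The stem cell marker thus exceeded the stem cell transcription factor in 6 of 7 DSS-treated mice and in 0 of 9 water-treated mice. The ratio of *Ascl2* to *Ephb2* ranged from 2.91 to 14.3 with water and from 0.668 to 1.50 after DSS, and that of *Ascl2* to *Cdca7* from 0.208 to 0.468 and from 0.0726 to 0.177. The other ratios without overlap were those of *Smoc2* to *Axin2* (1.34 to 3.63 with water, 4.81 to 7.27 after DSS) and of *Axin2* to *Ephb2* (3.03 to 13.2 with water, 1.31 to 2.89 after DSS). Thus 3 of the 9 other members exceeded their water-treated range relative to *Ascl2*, beside 11.0% of 11246 genes, and none fell short of it, beside 2.12%. The leukocyte and cell cycle sums differed between treatments as well, and their part in these ratios was not tested.

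**Figure D5:**
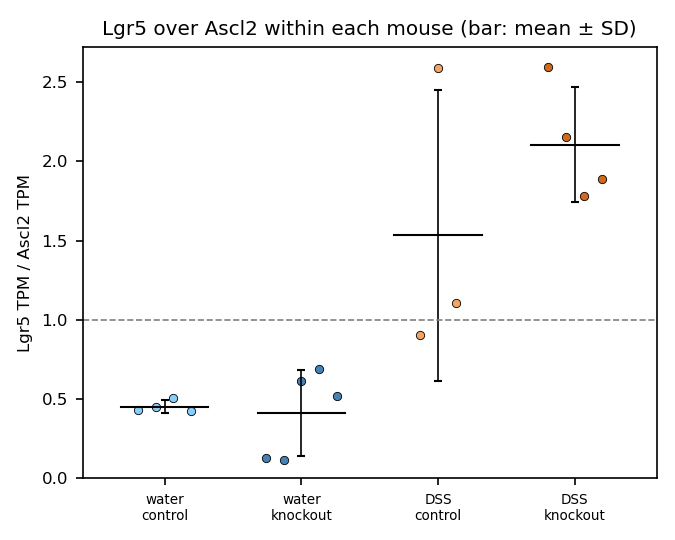
Ratio of *Lgr5* TPM to *Ascl2* TPM in each mouse, by group, on a linear axis that starts at 0; points are mice, bars are the mean ± SD and the dashed line is a ratio of 1. The water-treated mice lie between 0.113 and 0.688 and the DSS-treated mice between 0.904 and 2.60.

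Other genes of the pathway were taken from 6 lists, and the 2 most abundant genes of each are named. No listed gene passed limma's adjusted test of genotype in either treatment. Of the 10 ligand and R-spondin genes, 2 passed the filter on low values with water: *Wnt2b* (4.04 TPM in controls, 2.68 TPM in knockout-labelled mice) and *Wnt11* (2.19 and 2.03 TPM). After DSS their means were 0.852 and 1.27 TPM for *Wnt2b* and 0.165 and 0.0229 TPM for *Wnt11*. For *Wnt11* the ranges did not overlap between treatments in either genotype under any of the 3 scalings. In a single genotype and scaling, 8.25% to 18.1% of all genes lay below without overlap. The median of the stromal sum was lower after DSS as well. Whether stromal RNA had a part in these levels was not tested.

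Among the receptors, *Lgr4*, the R-spondin receptor of the whole crypt, had means of 16.7 and 10.8 TPM with water and of 34.2 and 30.2 TPM after DSS in controls and knockout-labelled mice. The co-receptor *Lrp5* lay at 13.99 and 12.98 TPM, and at 15.98 and 16.09 TPM. Of the 9 receptors tested after DSS, 7 had a higher mean in the knockout-labelled mice, beside 52.8% of all genes tested. With water 3 of the 8 tested did, beside 50.2%. No receptor had an unadjusted limma p under 0.05 in either treatment. For the secreted inhibitors, *Sfrp1* had means of 9.70 and 5.88 TPM with water, a difference of -0.79 ± 0.33 (log2, SE; limma adjusted p = 0.865), and of 9.86 and 22.4 TPM after DSS, a difference of 0.87 ± 0.93 (limma adjusted p = 1.00). *Dkk3* lay at 5.61 and 5.27 TPM, and at 1.88 and 3.26 TPM.

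In the destruction complex, the kinase gene *Csnk1a1* had means of 34.7 and 33.7 TPM with water and of 70.5 and 76.7 TPM after DSS, and *Gsk3a* of 27.0 and 29.2 TPM and of 29.2 and 30.1 TPM. *Ctnnb1*, the gene for β-catenin, had means of 120 and 128 TPM with water and of 176 and 174 TPM after DSS, while *Tcf7l1*, a partner that mainly represses, lay at 11.3 and 11.5 TPM and at 9.38 and 7.28 TPM. Both crypt markers named were higher after DSS. *Prom1*, a membrane protein of stem and progenitor cells, had means of 17.1 and 16.8 TPM with water and of 91.5 and 103 TPM after DSS, and *Slc12a2*, the ion cotransporter of the lower crypt, of 53.6 and 53.7 TPM and of 151 and 170 TPM. Neither overlapped between treatments in either genotype under any of the 3 scalings. In a single genotype and scaling, 6.5% to 31.5% of all genes lay above without overlap. Of the 9 measured genes in the list of other targets and crypt markers, 8 were higher after DSS in each genotype as deposited, with medians of 0.79 and 0.90. This stood beside 69.6% of all genes in controls and 66.3% in knockout-labelled mice. Under both rescalings it was 7 in controls and 6 in knockout-labelled mice, beside 49.8% to 53.1% of all genes.

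Over the 16 mice, the deviations of log2(TPM + 1) from the group means were compared between *Lgr5* and 10159 genes, as a description over mice that share tables and cages. The genes most like *Lgr5* were *Rdh11* (Pearson's r = 0.91, Spearman's rho = 0.82), *Ift88* (r = 0.86, rho = 0.82) and *Sestd1* (r = 0.84, rho = 0.80). Among the members, *Lrig1* was closest (r = 0.64, rank 96), followed by *Smoc2* (r = 0.44, rank 630). The other 7 members lay between r = -0.31 (*Ephb2*) and r = 0.17 (*Rnf43*), with *Ascl2* at -0.20. In single mice, 9 of 10 members were above the group median in DSS-treated knockout-labelled mouse 4 and 0 of 10 in mouse 3 of the same group, and 8 of 10 were above it in water-treated control mouse 2.

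The promoter windows given for 6 of the members (*Ascl2*, *Axin2*, *Lrig1*, *Rnf43*, *Ephb2* and *Cdca7*; RefSeq on GRCm38.p6) were searched for the TCF/LEF letters CTTTGAA and CTTTGAT and for the variants CTTTGTA and CTTTGTT, on both strands over 250 bases before the start. None of the 7 windows held them, and 14.8% of all 32851 windows did, which says only that these letters were not in these windows.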

How the data were processed

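EpCAM+ cells of 16 mice were sorted and sequenced by the authors as stranded polyA libraries with single reads of 75 bases, and reads were quantified with kallisto and sleuth, with mm10 named as the genome build in the submitters' processing notes. About 10000000 reads were obtained per library per the labels, and the transcript release and the exact depth of each library are not given in the sources used here. The deposited values are TPM per transcript, and only APPRIS principal isoforms are listed. The authors scaled each treatment's table separately. Each table held 29373 lines, of which 385 repeated another line and were dropped. The authors also deposited p-values and q-values, a log2 ratio of genotypes (their own comparison; neither was used) and the mean natural log of estimated counts per transcript, used here as the authors' mean and only for depth. That mean corresponds to 25.7 estimated counts of *Lgr5* per water-treated mouse and 179 per DSS-treated mouse, and to 21.7 and 32.4 of *Ascl2*, so low values carry counting error besides the spread between mice.

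The TPM of all listed transcripts with the same gene symbol were added. Genotypes were compared within a treatment, and their interaction over 4 groups, by limma 3.58.1 (R 4.3.3) with the variance trend on log2(TPM + 1). Genes whose mean was below 1 TPM in a table compared were left out. P-values were adjusted over all genes by Benjamini-Hochberg, with calls at 0.05. Fold changes on this scale understate changes of low genes. Beside it, an exact permutation test (two-sided) was run for each member. P-values set a difference against the spread between mice within groups, which also holds counting error. Limma draws that spread toward the trend over all genes. Cage did not enter the main fits. No test was run between treatments. The limma step for the genotype tests was also run on simulated data, without cages and with changes larger than those of any member. That run therefore does not give its power for the members. All 10 members passed the filter. *Lrig1* and *Rnf43* are sums of 2 listed transcripts each. Of the 31-base words of these transcripts, 0% were absent from other transcripts of the same gene, so their reads were divided by kallisto. For *Smoc2* and *Axin2* this share was 2.68% and 10.2%, so their TPM too depended on this division. It was 36.7% for *Lgr5*, 36.8% for *Znrf3*, 44.7% for *Cdca7*, 51.4% for *Ascl2* and 56.0% for *Ephb2*, which therefore depended on it in part, and 100% for *Sox9*. Of the annotated transcripts, 1 of 8 was listed for *Lgr5* and 1 of 2 for *Ascl2*. Gene positions are from GENCODE M21 on GRCm38. The genes named are the members, *Tnfrsf1b*, the 2 most abundant genes of each pathway list and any called, and the 3 genes most like *Lgr5*. The members and lists were chosen with earlier results of these data known.

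Replicate numbers come from the labels. Alternatives were a pseudocount of 0.1 TPM, no filter or a mean of 5 TPM, median-of-ratios factors and scaling to the epithelial reference genes. Each mouse was also left out in turn. The genotype tests within a treatment, but not the interaction, were also run with cage as a covariate, the replicate block or all 4 groups in 1 fit. Values of single transcripts and within cages were given for these genotype tests only. Tables and plots were made in Python 3.11.15.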

Additional observations from a re-analysis of the deposited data

Results flagged for a closer look

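The genotype difference of *Lgr5* after DSS minus that with water, 1.06 on the log2 scale, stood out because every knockout-labelled mouse was above the control mean after DSS and below it with water. The exact permutation p was 0.00771 for this gene alone, the limma adjusted p over all genes was 0.929, and no cause was tested. By Dixon's ratio of the gap to the range of the group, no mouse passed the critical value in the 30 combinations of a member and a group of 4 or 5 mice, the *Lrig1* mouse at 2.61 TPM included.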

How the results depend on the processing

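No alternative called a member. The number of genes called after DSS (1) was 0 with a pseudocount of 0.1 TPM, with no filter and with the replicate block, and 0 to 3 with 1 mouse left out. With water (1) it was 0 with the pseudocount of 0.1 TPM, the 5 TPM filter and the replicate block, 4 with no filter, 3 with all 4 groups in 1 fit, and 1 to 2 with 1 mouse left out. For the interaction (1) it was 0 with the 5 TPM filter, 2 under both rescalings, and 1 to 2 with 1 mouse left out. Same-numbered mice did not deviate together on average (mean r = -0.13 after DSS and 0.04 with water). With water 2 of 4 controls were closest to the knockout-labelled mouse of their own number, and after DSS 0 of 3 were. So few pairs cannot show whether the numbers pair the mice, and the main fits did not pair them. Under the replicate block 169 and 623 genes had an unadjusted limma p under 0.05, and after DSS *Ascl2* (-0.0019) and *Smoc2* (-0.0050) turned sign. The members higher in knockout-labelled mice (7 after DSS, 2 with water) were 4 and 1 under the 5 TPM filter, which tests fewer members, and 4 to 8 and 2 to 5 with 1 mouse left out; those with a positive interaction (7) were 4 under that filter and 4 to 8. The members without overlap above in controls (6) were 3 under both rescalings.

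With 1 mouse left out, *Lgr5* stayed at 0.48 to 0.81 after DSS, -0.55 to -0.32 with water and 0.92 to 1.27 for the interaction, whose unadjusted limma p stayed between 0.0023 and 0.0198 (adjusted 0.659 to 0.998). The unadjusted limma p of *Lgr5* after DSS (0.0320) was 0.0282 to 0.0588 under the other settings and 0.0082 to 0.0993 with 1 mouse left out (adjusted 0.830 to 1.00), and it was not under 0.05 in 6 of these 15 fits. With water it was under 0.05 in 1 of 16 fits, that with cage as a covariate. Without DSS-treated control mouse 2, the unadjusted limma p was under 0.05 for 3 members, *Lgr5*, *Lrig1* and *Cdca7*, all with an adjusted p of 0.830. Signs turned after DSS for *Ascl2* (-0.087 to 0.23), *Smoc2* (-0.26 to 0.30), *Axin2* (-0.35 to 0.24), *Znrf3* (-0.023 to 0.20) and *Ephb2* (-0.044 to 0.17), and with water for *Ascl2* (-0.37 to 0.019), *Smoc2* (-0.36 to 0.011), *Axin2* (-0.19 to 0.0041), *Lrig1* (-0.60 to 0.19) and *Rnf43* (-0.43 to 0.15). For the interaction they turned for *Smoc2* (-0.11 to 0.47), *Axin2* (-0.26 to 0.32), *Rnf43* (-0.45 to 0.12) and *Cdca7* (-0.041 to 0.23). The causes were not tested.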
